A study of Mus musculus with 8 samples.

Results

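The GABAergic gene set examined here held 32 genes chosen by symbol, and all 32 had values among the 15039 genes of the table. They comprised 11 GABA receptor subunits, the inhibitory scaffold gene *Gphn*, 5 genes for making, loading, taking up and degrading GABA, and 15 genes that mark interneurons or their classes. Values came from RNA sequencing of the prefrontal cortex (PFC) of 4 Rnf146-overexpressing mice and 4 eGFP-overexpressing mice, 1 library each. All were wild-type male C57BL/6NCrljOri mice. Both sides of the PFC received an AAV2/1 vector at 6 weeks of age, and tissue was taken 4 weeks after injection. The vector carried either Rnf146 with eGFP or eGFP alone, so that both groups expressed eGFP, and the hsyn promoter restricts expression to neurons. By the study's account, the Rnf146-overexpressing mice that were sequenced had been found to overexpress the gene and to show social deficits, so that group was selected.

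GABA is the main inhibitory transmitter of the cortex. Interneurons make it from glutamate with the decarboxylases GAD67 and GAD65, encoded by *Gad1* and *Gad2*, and VGAT, encoded by *Slc32a1*, loads it into vesicles. GABA-A receptors are pentameric chloride channels assembled from several subunits, and GABA-B receptors are obligate dimers of *Gabbr1* and *Gabbr2* products coupled to G proteins. Cortical interneurons arise from the ganglionic eminences of the ventral forebrain, which also give rise to the GABAergic neurons of the striatum and contribute to those of the septum. The genes for GABA synthesis and the *Dlx* genes are therefore shared by many GABAergic cells, whereas *Lhx6*, *Sox6*, *Satb1* and *Maf* mark mainly the parvalbumin and somatostatin classes in cortex, and *Prox1* and *Adarb2* mark mainly the classes from the caudal ganglionic eminence.

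The deposited values are log2 values that had been centred within the pairs of libraries with the same replicate number, so each gene holds its mean and 4 pair differences. After this centring, groups of libraries that lie apart and 1 sign in all 4 pair differences are the same fact. It held for 20.6% of all genes, so non-overlap of the groups adds nothing to the signs of the pairs. A difference below is always RNF146 minus eGFP within a pair, on this deposited log2 scale, and SDs are over the 4 pairs. The scale shrinks the changes of weakly expressed genes. Over all genes the median difference was 0.00. The read depth of the libraries is unknown. *Rnf146* itself, the gene carried by the vector, lay between 10.35 and 10.50 in the eGFP libraries and between 13.01 and 13.17 in the RNF146 libraries, with vector and own transcripts counted together. Pairs differed in tissue markers. Over 13 striatal medium spiny neuron markers the mean difference was -0.10, 1.23, 0.63 and 0.23 in pairs 1 to 4, and over 10 oligodendrocyte markers it was -0.16, 0.44, 0.81 and 0.51. Pair 1 alone was below 0 in both lists, and pair 2 had the highest striatal value. In such bulk tissue, more cells of a type and more RNA per cell cannot be told apart.

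Genes for making, loading and degrading GABA were higher in Rnf146-overexpressing mice, whereas most receptor subunits and interneuron identity genes did not pass the test. In a limma fit blocked on the replicate number, 6 of the 32 genes passed the adjusted p threshold of 0.1, beside 1.25% of all genes. All 6 were higher, a direction called for 0.818% of all genes, while 0.432% were called lower. These were *Gad1*, *Gad2*, *Slc32a1*, *Abat*, *Dlx1* and *Gabrg1*. Of the 5 synthesis and transport genes 4 were called, against 1 of 11 receptor subunits and 1 of 15 identity genes. The median difference was 0.45 for the synthesis and transport genes, 0.08 for the receptor subunits and 0.01 for the identity genes. The synthesis and transport genes averaged above the receptor subunits in each pair, with means of 0.42, 0.57, 0.25 and 0.47 against 0.11, 0.07, 0.03 and -0.02. The identity genes averaged 0.04, 0.06, -0.02 and 0.02 in the same pairs. These low averages cover genes that went both ways. Of the 15 identity genes, 4 were higher and 4 were lower in all 4 pairs, which is 53.3%, beside 20.6% of all genes. No list was tested as a whole, because its genes were chosen with results of these data known.

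**Figure D1:**
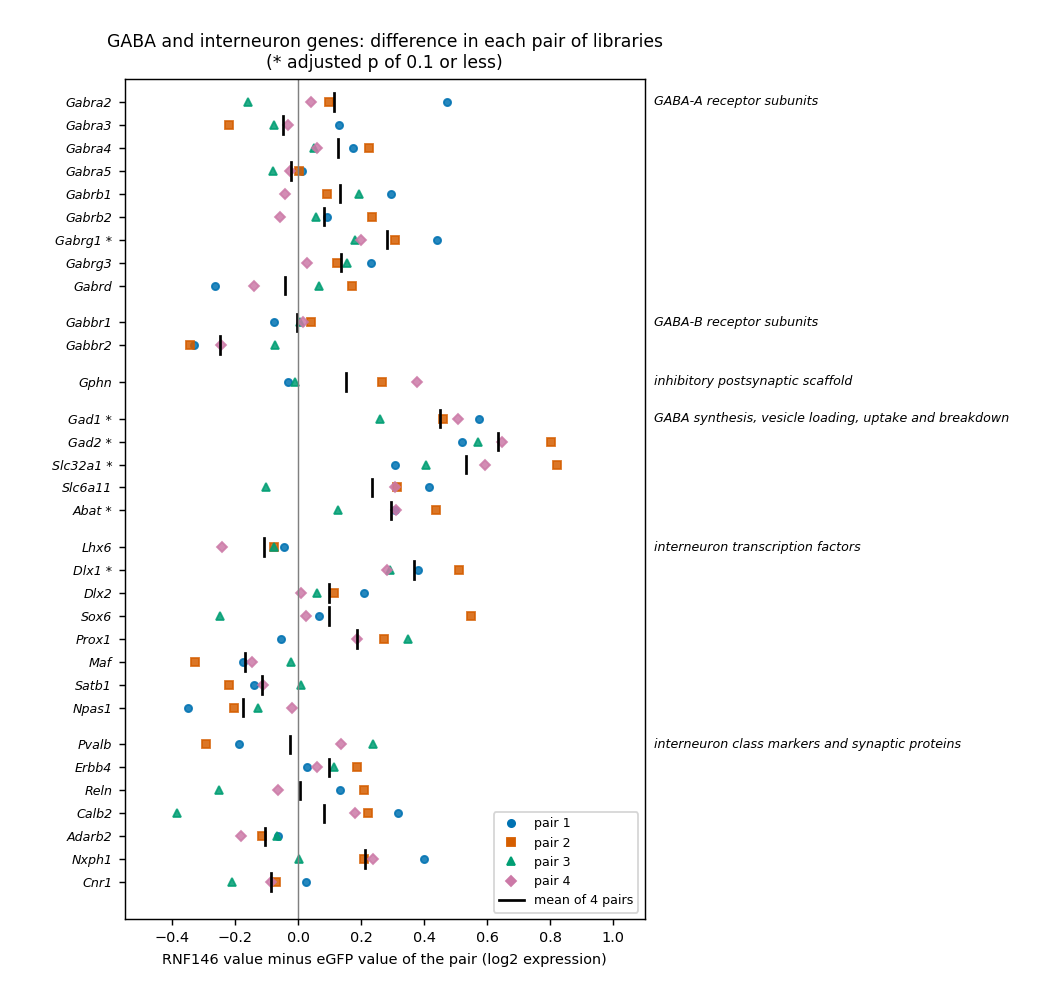
Difference between the RNF146 and the eGFP library of each pair (log2 expression, horizontal axis) for the 32 genes, grouped by role, with a point for each of the 4 pairs and a bar at their mean. The 4 points of *Gad1*, *Gad2*, *Slc32a1*, *Abat*, *Dlx1* and *Gabrg1* all lie above 0, and those of most receptor subunits and identity genes lie on both sides of 0 or near it.

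*Gad2*, which encodes the decarboxylase GAD65 of nerve terminals, had the largest difference of the 32 genes. Its value was 12.51, 12.37, 12.48 and 12.44 in eGFP libraries 1 to 4, and 13.03, 13.17, 13.05 and 13.09 in RNF146 libraries 1 to 4. Every RNF146 library lay above every eGFP library, by 0.64 ± 0.12 (SD) on average (limma, adjusted p = 0.0050). The gene ranked 6 of 15039 by p. Transformed back to normalized counts, the change was 1.60-fold. The gene lies on chromosome 2 (GRCm39, 22511862 to 22583886, plus strand).

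*Gad1* encodes GAD67, which makes most of the GABA of a neuron. The eGFP libraries held 12.81, 12.87, 12.97 and 12.85, and the RNF146 libraries held 13.39, 13.33, 13.23 and 13.35. The groups did not overlap, and library 3 of each group lay nearest to the other group. On average they lay 0.45 ± 0.13 (SD) apart (limma, adjusted p = 0.019). *Gad1* also lies on chromosome 2 (GRCm39, 70383416 to 70432372, plus strand).

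*Slc32a1*, for the vesicular transporter VGAT, had 11.11, 10.86, 11.06 and 10.97 in the eGFP libraries and 11.42, 11.68, 11.47 and 11.56 in the RNF146 libraries. Pair 2 was the widest apart, at 0.82, and pair 1 the closest, at 0.31. The average was 0.53 ± 0.23 (SD), and limma gave an adjusted p of 0.032. An annotated lncRNA on the opposite strand, *Gm14204*, had a difference of 0.18 and an adjusted p of 0.321. *Slc32a1* lies on chromosome 2 as well (GRCm39, 158452605 to 158464883, plus strand).

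*Abat* encodes GABA transaminase, the enzyme that degrades GABA in mitochondria. Its values were 12.72, 12.65, 12.81 and 12.72 in the eGFP libraries and 13.03, 13.09, 12.94 and 13.03 in the RNF146 libraries. The 4 RNF146 libraries lay above all eGFP libraries, by the least in pair 3. The change averaged 0.30 ± 0.13 (SD; limma, adjusted p = 0.074). *Slc6a11*, for the uptake transporter GAT-3 that is found mainly in astrocytes, was the one gene of this class that was not called. It had 11.92, 11.97, 12.18 and 11.97 in the eGFP libraries and 12.33, 12.28, 12.08 and 12.28 in the RNF146 libraries, so that pair 3 went the other way. Its mean difference was 0.23 ± 0.23, with a 95% interval of 0.05 to 0.42 and an adjusted p of 0.284 from limma.

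**Figure D2:**
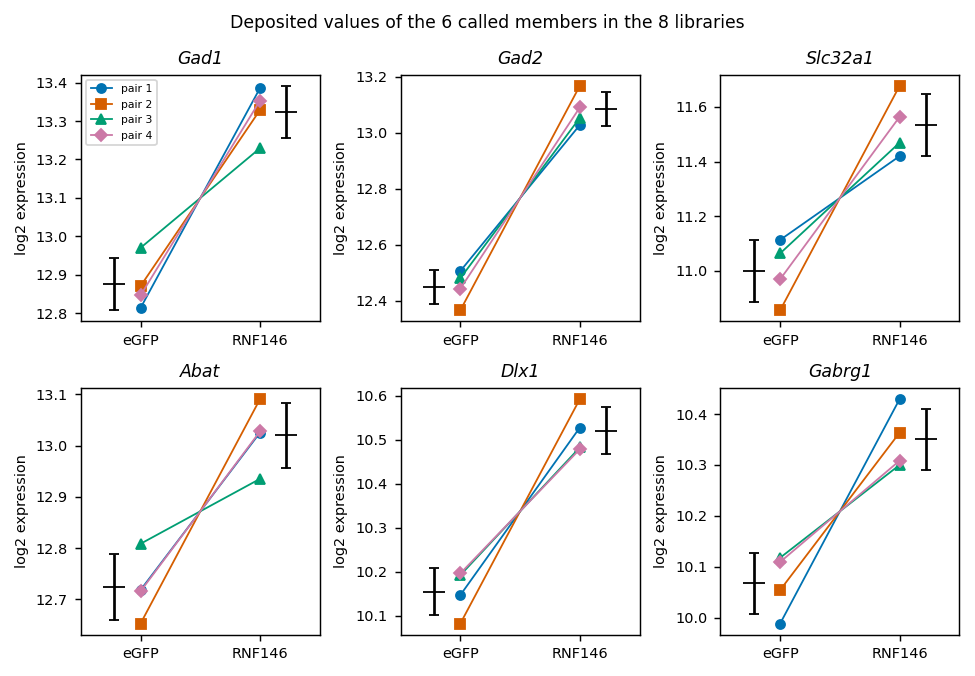
Deposited log2 expression (vertical axis, not starting at 0) of the 6 called genes in the eGFP and RNF146 libraries, with a line joining the libraries of a pair and the mean and SD of each group beside the points. In all 6 genes the RNF146 libraries lie above the eGFP libraries, and the lines cross at the gene's mean because the deposited values were centred within pairs.

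All 6 called genes moved in the same direction in all 4 pairs. *Abat* had no promoter listed, and the promoters of the other 5 are shown. Each runs from 250 bases before to 50 bases after a RefSeq transcription start and is given on the gene's own strand, with coordinates in GRCm38.p6, which is not the build of the expression data. Capitals mark TAATTA, the core recognized by many homeodomain proteins, DLX and LHX proteins among them. Also searched, on both strands, were CTTTGA, which overlaps the core of TCF/LEF sites, and the cAMP response element TGACGTCA.
Gad1, chr2:70561879-70562178, plus strand: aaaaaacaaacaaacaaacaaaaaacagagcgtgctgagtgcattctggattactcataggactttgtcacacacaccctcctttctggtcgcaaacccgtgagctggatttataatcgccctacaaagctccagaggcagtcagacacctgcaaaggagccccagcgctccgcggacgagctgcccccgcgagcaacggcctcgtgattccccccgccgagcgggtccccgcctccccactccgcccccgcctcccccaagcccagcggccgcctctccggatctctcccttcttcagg
Gad2, chr2:22622077-22622376, plus strand: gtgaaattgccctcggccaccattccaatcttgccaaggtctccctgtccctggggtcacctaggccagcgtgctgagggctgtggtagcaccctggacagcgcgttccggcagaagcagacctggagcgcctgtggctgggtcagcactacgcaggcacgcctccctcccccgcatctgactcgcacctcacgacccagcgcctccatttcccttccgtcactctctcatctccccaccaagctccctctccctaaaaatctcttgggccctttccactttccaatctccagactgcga
Slc32a1, chr2:158610508-158610807, plus strand: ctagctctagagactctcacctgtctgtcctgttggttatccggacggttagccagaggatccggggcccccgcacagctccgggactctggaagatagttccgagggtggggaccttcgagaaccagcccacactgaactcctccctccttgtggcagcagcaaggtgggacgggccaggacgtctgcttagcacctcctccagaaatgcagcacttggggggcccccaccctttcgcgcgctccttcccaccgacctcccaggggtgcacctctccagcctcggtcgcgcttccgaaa
Dlx1, chr2:71529195-71529494, plus strand: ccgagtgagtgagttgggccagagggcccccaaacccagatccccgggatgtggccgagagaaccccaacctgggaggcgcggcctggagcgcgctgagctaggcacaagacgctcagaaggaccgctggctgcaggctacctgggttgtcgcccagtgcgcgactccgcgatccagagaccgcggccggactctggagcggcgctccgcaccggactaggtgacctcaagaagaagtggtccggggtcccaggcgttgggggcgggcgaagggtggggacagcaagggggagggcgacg
Gabrg1, chr5:70842568-70842867, minus strand: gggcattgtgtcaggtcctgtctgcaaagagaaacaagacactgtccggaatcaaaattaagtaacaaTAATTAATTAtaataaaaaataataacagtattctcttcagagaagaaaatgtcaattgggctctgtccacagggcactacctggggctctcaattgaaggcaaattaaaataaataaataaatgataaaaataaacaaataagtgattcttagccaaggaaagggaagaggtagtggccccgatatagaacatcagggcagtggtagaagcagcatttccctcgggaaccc
Only the *Gabrg1* window held TAATTA, in overlapping copies that begin 182 bases before the start, and none of the 5 windows held CTTTGA or TGACGTCA. Of all 32851 promoters of this length in the table, 5.29% held TAATTA, 16.0% held CTTTGA and 1.79% held TGACGTCA. Of the 47 promoters listed for 28 of the 32 genes, 2 held TAATTA, 8 held CTTTGA and 0 held TGACGTCA. The windows of *Gad1*, *Gad2*, *Slc32a1* and *Dlx1* were rich in G and C, at 60.0%, 61.3%, 63.3% and 69.3%, and that of *Gabrg1* had 38.3%, beside a median of 52.7% over all promoters. These matches only describe the letters of the windows.

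Among the 9 GABA-A subunits 1 was called. *Gabrg1* encodes the γ1 subunit, a rarer relative of the γ2 subunit that most synaptic receptors contain. It had 9.99, 10.05, 10.12 and 10.11 in the eGFP libraries and 10.43, 10.36, 10.30 and 10.31 in the RNF146 libraries. The groups did not overlap, and the difference was largest in pair 1. The change averaged 0.28 ± 0.12 (SD), at an adjusted p of 0.083 by limma.

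The other 8 GABA-A subunits had mean differences between -0.05 and 0.13 and adjusted p-values between 0.320 and 0.886. For 6 of these 8, the 95% interval of the difference lay within ±0.25. *Gabra4* and *Gabrg3*, for the α4 and γ3 subunits, had values above eGFP in all 4 pairs, with mean differences of 0.13 and 0.13 and unadjusted p-values of 0.030 and 0.025 from limma. *Gabrb1*, a β subunit gene next to *Gabra4* that overlaps its annotated ends on the other strand, had a mean difference of 0.13 and an adjusted p of 0.410. *Gabra5*, the α5 subunit of many extrasynaptic receptors, was the most even, between -0.08 and 0.01 over the pairs. *Gabrd*, for the δ subunit of extrasynaptic receptors, was at -0.26, 0.17, 0.07 and -0.14.

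*Gabra2*, for an α subunit common in forebrain, had the largest spread of the receptor subunits. The eGFP libraries held 11.78, 11.97, 12.10 and 11.998 and the RNF146 libraries held 12.25, 12.07, 11.94 and 12.04. The groups overlapped, and the difference of 0.47 in pair 1 carried the mean of 0.11 ± 0.26 (SD), which was -0.0075 without that pair.

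The paired GABA-B subunits differed from each other. *Gabbr1*, for the subunit that binds GABA, had differences between -0.08 and 0.04 and a mean of 0.00, with a 95% interval of -0.11 to 0.10. *Gabbr2*, for the subunit that couples to the G protein, had 13.49, 13.50, 13.37 and 13.45 in the eGFP libraries and 13.17, 13.16, 13.29 and 13.21 in the RNF146 libraries. All RNF146 libraries lay below all eGFP libraries, with pair 3 the closest. The average was -0.25 ± 0.12 (SD), with a 95% interval of -0.38 to -0.12 and an adjusted p of 0.123 from limma. With pairs 1 to 4 left out in turn, the adjusted p from limma was 0.156, 0.449, 0.077 and 0.403. The difference between the subunits was not tested.

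*Gphn*, for gephyrin, the scaffold that anchors glycine and many GABA-A receptors, had 10.95, 10.80, 10.94 and 10.75 in the eGFP libraries and 10.92, 11.07, 10.93 and 11.13 in the RNF146 libraries. Pairs 2 and 4 differed by 0.27 and 0.38 and pairs 1 and 3 by -0.03 and -0.01. The average of 0.15 did not exceed its SD of 0.20 (limma, adjusted p = 0.453).

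Of the 8 interneuron transcription factor genes, *Dlx1* alone was called. Among the 7 not called, 4 had an unadjusted limma p under 0.05, a level that 12.4% of all genes passed. DLX1 is a homeodomain protein of ventral forebrain progenitors that persists in interneurons. Its values were 10.15, 10.08, 10.19 and 10.20 in the eGFP libraries and 10.53, 10.59, 10.48 and 10.48 in the RNF146 libraries. The groups did not overlap and lay 0.37 ± 0.11 (SD) apart (limma, adjusted p = 0.029). *Dlx1* (chromosome 2 of GRCm39, 71358457 to 71364325, plus strand) overlaps *Dlx1as* on the opposite strand, which had a difference of -0.04 and an adjusted p of 0.810. Its neighbour *Dlx2* had values above eGFP in all 4 pairs, by 0.21, 0.11, 0.06 and 0.01, and an adjusted p of 0.477.

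Factors of the parvalbumin and somatostatin classes had mean differences on both sides of 0, and none was called. *Lhx6*, which specifies these classes, was at -0.04, -0.08, -0.08 and -0.24, below eGFP in all 4 pairs, with an adjusted p of 0.436. *Maf*, which acts downstream of it, had 9.66, 9.74, 9.59 and 9.65 in the eGFP libraries and 9.49, 9.41, 9.56 and 9.50 in the RNF146 libraries. The libraries of the groups did not overlap, but pair 3 differed by only -0.02, and the mean difference was -0.17 ± 0.13 with an adjusted p of 0.289 from limma. *Satb1*, a chromatin organizer needed for maturation of these cells, had a mean difference of -0.12, and *Sox6* had 0.10.

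*Sox6* had the largest spread of the transcription factor genes. Its eGFP libraries held 10.07, 9.83, 10.23 and 10.09 and its RNF146 libraries held 10.13, 10.38, 9.98 and 10.11. The groups overlapped, pair 2 differed by 0.55 and pair 3 by -0.25, and the mean of 0.10 became -0.052 without pair 2. *Npas1*, for a bHLH-PAS repressor found in interneurons, had 9.33, 9.25, 9.22 and 9.16 in the eGFP libraries and 8.98, 9.05, 9.09 and 9.14 in the RNF146 libraries. The groups lay apart but were nearly level in pair 4, and the mean difference of -0.17 ± 0.14 had an adjusted p of 0.284 from limma. *Prox1*, a factor of the caudal ganglionic eminence classes, had differences of -0.05, 0.27, 0.35 and 0.19 and an adjusted p of 0.313.

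None of the 7 class markers and synaptic genes of interneurons was called by limma, and 1 of them, *Nxph1*, had an unadjusted p under 0.05, beside 12.4% of all genes. *Nxph1* encodes a secreted ligand of α-neurexins. It had 10.09, 10.19, 10.29 and 10.17 in the eGFP libraries and 10.49, 10.40, 10.29 and 10.41 in the RNF146 libraries. The groups met in pair 3, which differed by less than 0.01, and the mean difference was 0.21 ± 0.16 with an adjusted p of 0.234. *Calb2*, for calretinin, had 9.37, 9.42, 9.72 and 9.44 in the eGFP libraries and 9.69, 9.64, 9.34 and 9.62 in the RNF146 libraries. The groups overlapped because pair 3 went the other way, by -0.38, and the mean was 0.08 ± 0.32.

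*Pvalb*, for the calcium buffer of fast-spiking cells, was at -0.19, -0.29, 0.24 and 0.14, with a mean of -0.03 and a 95% interval of -0.23 to 0.17. *Reln*, for the secreted protein reelin, averaged 0.01, and *Cnr1*, for the cannabinoid receptor of cholecystokinin cells, averaged -0.09. *Erbb4*, for the neuregulin receptor of interneurons, was above eGFP in all 4 pairs with a mean of 0.10, and *Adarb2* was below in all 4 with a mean of -0.11. Their adjusted p-values were 0.441 and 0.409 from limma.

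Over the 32 genes, 16 had the same direction in all 4 pairs, 11 higher and 5 lower, beside 20.6% of all genes, 10.4% higher and 10.2% lower. Taking the 8 libraries as independent, without the replicate block, 20 of the 32 genes were called, 14 higher and 6 lower, beside 21.5% of all genes. That test counts more degrees of freedom than the centred values hold.

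Genes of the same pathway and cell classes outside the 32 were taken from lists. Of 25 other GABA pathway genes, 0 were called by limma, beside 1.25% of all genes. An unadjusted limma p under 0.05 was found for 6 of the 25, a level that 12.4% of all genes passed. The median difference of the 25 genes was 0.01.

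Of 31 other interneuron genes, 2 were called, beside 1.25% of all genes. Both were higher, and both are transcription factor genes of the ventral forebrain. *Sp9* had differences of 0.45, 0.42, 0.27 and 0.42 averaging 0.39 ± 0.08 (SD; limma, adjusted p = 0.018). *Dlx6* had 0.39, 0.49, 0.07 and 0.40 and an adjusted p of 0.092. The other 29 were not called, with mean differences from -0.47 to 0.43 and adjusted p-values from 0.116 to 0.980. The median difference of the 31 genes was -0.01.

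Markers of septum and basal forebrain moved with the called genes in all 4 pairs. The 8 such genes analysed averaged 0.41, 0.75, 0.34 and 0.55 in pairs 1 to 4. Their mean level ran from 9.25 to 9.45 in the eGFP libraries and from 9.79 to 9.998 in the RNF146 libraries. Of the 8, 7 were called higher, beside 0.818% of all genes. *Zic1*, a zinc finger gene of medial forebrain, reached 0.94, 1.44, 0.52 and 1.04. The septal markers *Chat*, *Slc18a3*, *Lhx8* and *Gbx1* were not analysed here. The 13 striatal markers, with limma adjusted p-values between 0.119 and 0.445, averaged above 0 in pairs 2 to 4 and below 0 in pair 1, whereas *Gad1*, *Gad2* and *Slc32a1* were higher by 0.57, 0.52 and 0.31 in pair 1. The 13 cortical excitatory markers averaged -0.17, -0.13, -0.03 and -0.11. Their mean level ran from 11.04 to 11.11 in the eGFP libraries and from 10.94 to 11.02 in the RNF146 libraries. Of the 13, 9 had a mean difference below 0 and 4 above it. Called genes among them were 2, both lower, beside 0.432% of all genes called lower. Over 8 microglia markers the mean difference was -0.17, -0.24, -0.07 and -0.10, and 0 were called, beside 1.25% of all genes. Their mean level ran from 10.12 to 10.21 in the eGFP libraries and from 9.97 to 10.05 in the RNF146 libraries. For 9 astrocyte markers the mean difference was -0.05, -0.01, 0.09 and 0.01, and 1 was called, higher. The part of these cell populations in the differences of the GABA genes was not tested.

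With the mean level of the striatal markers as a covariate beside the block, the differences were 0.54 for *Gad2*, 0.50 for *Gad1*, 0.37 for *Slc32a1*, 0.31 for *Dlx1*, 0.26 for *Abat* and 0.32 for *Gabrg1*. The limma adjusted p of these 6 genes lay between 0.109 and 0.578. None of the 32 was called, but this fit called only 8 of all 15039 genes, against 188 without the covariate. With the septal and basal forebrain markers in place of the striatal ones, a fit added after the data had been seen, the differences were 0.31 for *Gad2*, 0.32 for *Gad1*, -0.08 for *Slc32a1*, 0.14 for *Dlx1*, -0.03 for *Abat* and 0.26 for *Gabrg1*, all with a limma adjusted p of 0.9996. In the whole table, 1 gene was called with the septal covariate. The septal marker level did not overlap between the groups, so in that fit marker level and group can hardly be told apart and the loss of calls follows from its construction. Each of these fits leaves 2 residual degrees of freedom.

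**Figure D3:**
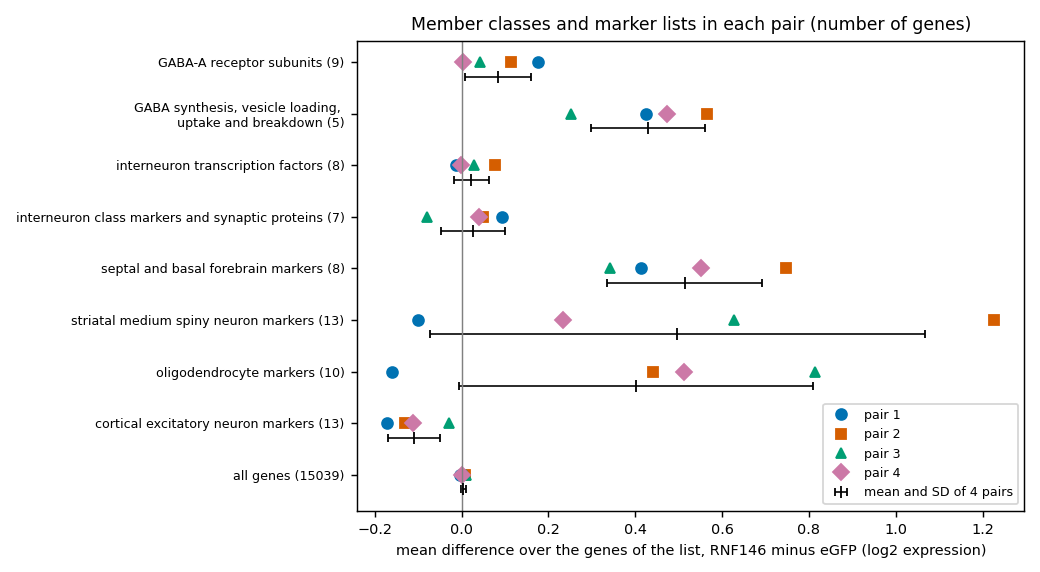
Mean difference over the genes of each list in each of the 4 pairs (log2 expression, horizontal axis), with the number of genes in brackets and the mean and SD of the 4 pairs below the points. The synthesis and transport genes and the septal and basal forebrain markers lie above 0 in all 4 pairs, and the striatal and oligodendrocyte markers are below 0 in pair 1 and spread widely.

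Which of the 6 genes passed the threshold depended on the pairs. *Gad2* was called by limma whichever pair was left out, with adjusted p-values of 0.0094, 0.021, 0.013 and 0.087 without pairs 1 to 4 and differences between 0.58 and 0.67. *Slc32a1* was called without pair 1, 2 or 3 and had an adjusted p of 0.230 without pair 4. *Gad1* had adjusted p-values of 0.102 and 0.165 without pairs 2 and 4, *Dlx1* had 0.139 and 0.156, and *Abat* had 0.320 and 0.330. *Gabrg1* was not called with any pair left out, at 0.103 to 0.327. The differences themselves kept their sign in all these fits, and the number of called genes in the whole table went from 188 to 421 without pair 1, to 42 without pair 2 and to 14 without pair 4.

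**Figure D4:**
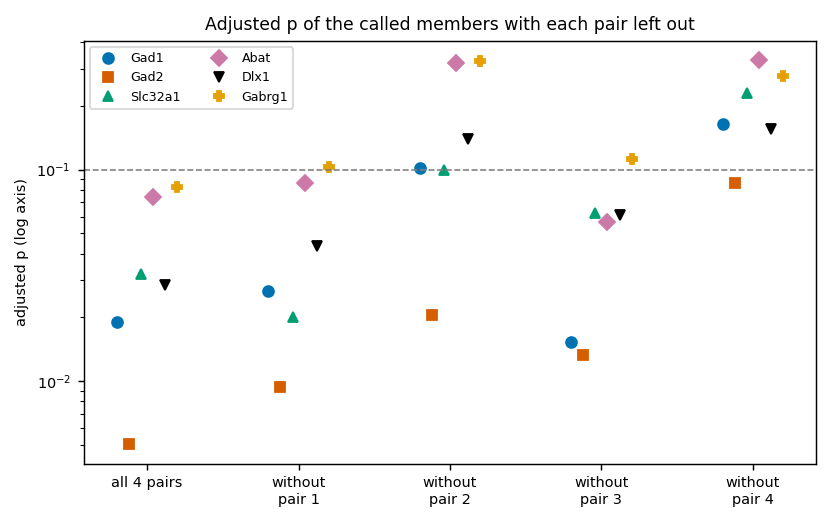
Adjusted p (log axis) of the 6 called genes with all 4 pairs and with each pair left out, with a dashed line at the threshold of 0.1. *Gad2* stays below the line throughout, and *Gabrg1* lies above it whenever a pair is missing.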

How the data were processed

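RNA of the PFC of 8 mice was sequenced from stranded mRNA libraries. Cutadapt was used by the authors for trimming, and Salmon 1.9.0 with GENCODE vM30 (GRCm39) for quantification. Although its name speaks of normalized counts, the deposited table holds values on a log2 scale (7.86 to 18.8). For each gene, eGFP plus RNF146 gives one sum for every pair, to within 1.4e-13. Deviations of same-numbered libraries therefore correlate at -1. The transformation and the centring are not given in the sources used here, and depth is unknown. No per-sample column was left unused.

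Groups and replicate numbers came from the sample titles. Nothing states that same-numbered mice shared a cage or day. The test was two-sided limma 3.58.1 (R 4.3.3; lmFit, then eBayes with trend) over all 15039 genes, with the replicate number as a block because 8 centred values hold 4 differences, and Benjamini-Hochberg adjustment over all genes. Calls were made at the FDR threshold of the study, 0.1. Fold changes on the count scale came from inverting a variance-stabilizing curve, with an offset of 0.5. The curve was fitted to mean counts of the 294 genes that the study lists as differentially expressed. Its absolute residual had a median of 0.0068 and a maximum of 0.54. On that curve, a value moves by between 0.44 and 0.98 per unit of log2 count over the 32 genes. In 10 simulations, 200 genes were shifted by 0.5, with noise drawn independently for each gene. On average the blocked fit called 177.8 of the shifted genes and 16 others. Shifts smaller than 0.5 were not simulated. *Gad1*, *Dlx1*, *Abat*, *Gabrg1* and all genes of the 32 that were not called had smaller differences. Genes that move together within a pair, as the marker lists did, were not simulated either.

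The genes, the lists and the choice of the block were made with earlier results of these data known. Full values are given for genes called, for genes with 1 direction in all 4 pairs and an absolute mean of 0.15 or more, and for the gene with the largest spread of each class. Outside the 32, *Zic1* was also named after its values were seen. Alternatives are no replicate block, other variance settings, median centring, quantile normalization, 2 filters on low values, an adjusted p of 0.05, back-transformed values, marker scores as covariates and each pair left out. Gene positions are from GENCODE vM39 (GRCm39) and promoters from RefSeq (GRCm38.p6). Python 3.11.15, pandas 2.3.3 and matplotlib 3.10.9 were used. Whether the replicates came from separate cages or batches is not stated. The p-values of the blocked fit rest on the spread of the 4 pair differences, pooled in part over genes by eBayes.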

Additional observations from a re-analysis of the deposited data

Results flagged for a closer look

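Of the 32 genes, *Lhx6* had 1 pair far from the others. Pair 4 stood at -0.24, whereas the other pairs lay between -0.08 and -0.04. The gap took up 0.834 of the range, just above Dixon's 95% critical value for 4 values. Chance gives such a gap in about 1 of 20 groups, and 32 groups of 4 were examined.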

How the results depend on the processing

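Robust or untrended variances, median centring, quantile normalization, back-transformed values and a filter on the lowest 10% of mean values kept the number of called members at 6 and called the same genes. Without the replicate block, 3226 genes and 20 members were called. With the upper part of the table alone (7520 genes), 105 genes were called, and the median difference of the 7 identity genes left was 0.10. At an adjusted p of 0.05, 80 genes were called. With the striatal covariate, 8 genes and 0 members were called. With the septal covariate, added after the data had been seen and close to a restatement of the groups, 1 gene and 0 members were called, and the class medians were -0.012 for receptor subunits and -0.034 for synthesis and transport genes. With pairs left out, called genes ranged from 14 to 421, called members from 1 to 7, and the class medians from 0.03 to 0.13 for receptor subunits, from 0.41 to 0.51 for synthesis and transport genes and from -0.052 to 0.092 for identity genes. Signs of single genes turned in few fits. *Sox6* was at -0.066 with the striatal covariate and -0.79 with the septal one. With the septal covariate *Gphn* was at -0.29, *Slc32a1* at -0.083, *Slc6a11* at -0.090, *Abat* at -0.034, *Maf* at 0.16 and *Calb2* at -0.41. With pairs left out, *Gabra2* ranged from -0.0075 to 0.20 and *Sox6* from -0.052 to 0.21. The cause was not tested. Weakly expressed genes such as *Pvalb* and *Npas1* are compressed on the deposited scale, and with the depth unknown no limit from counting can be given.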
